A study of Homo sapiens with 7 samples.

Results

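SETD7 peaks of vehicle 22Rv1 cells were set against the FOXA1 peaks of the same cells, to give how far each SETD7 peak lay from the nearest FOXA1 peak. The members were every peak of the SETD7 list on chromosomes 1 to 22 and X, 25363 of the 25526 in that list, and the 163 left out were on chromosome Y. The FOXA1 list gave 65093 of its 65461 peaks by the same rule. Together they are 90456 of the 464730 peaks that the 7 lists of the series hold on these chromosomes.

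The cells, 22Rv1 (titled CWR22-Rv1) and LNCaP, are established human prostate cancer lines, and each list comes from 1 chromatin immunoprecipitation sequencing (ChIP-seq) library. In 22Rv1, SETD7 and FOXA1 were mapped in cells labelled vehicle, and FOXA1 also in cells stably carrying a control hairpin (shCTL, 83633 peaks used) or one that targets SETD7 (shSETD7, 63682 peaks). The LNCaP libraries, all of FOXA1, followed 4 h of DMSO (79741 peaks), of GSK2879552, which inhibits the demethylase LSD1 (63866 peaks), or of GSK2879552 and the SETD7 inhibitor PFI-2 (83352 peaks). The vehicle agent of the 22Rv1 cells is not named in the labels, and every peak name of the vehicle FOXA1 list carries a siNTC tag that the labels do not explain, so that list is called vehicle as labelled. With 1 library per group there is no spread between replicates and no test, and the 95% intervals below cover counting error only. Neighbouring peaks are not independent, so these intervals are likely too narrow. Read depth is unknown from the lists.

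SETD7 is a lysine methyltransferase that modifies histone H3 and many other proteins, and the series title names FOXA1 as one of them. It is not known to bind DNA by sequence, so its ChIP signal is read as contact with chromatin through other molecules. FOXA1 is a forkhead pioneer factor that binds DNA wrapped on nucleosomes and, in prostate cells, opens enhancers used by the androgen receptor. Peaks of both proteins at 1 position show that both libraries gave signal there, not that the proteins were in contact.

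Most SETD7 peaks did not lie at a FOXA1 peak. The median distance from a SETD7 midpoint to the nearest FOXA1 midpoint was 10.4 kb (95% interval 10.2 to 10.6), and the middle 50% of the peaks lay between 3.84 and 23.04 kb. A pair is called close below when the midpoints were at most 500 bp apart, a distance near the width of the peaks (medians 324 bp for SETD7 and 262 bp for FOXA1). Of the SETD7 peaks, 1731 were close to FOXA1, or 6.82% (6.52 to 7.14).

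The same peaks moved along their chromosomes gave a background share, which can include positions in long stretches without any peak. Each SETD7 peak was shifted in both directions by 10, 30, 100, 300 and 1000 kb, 10 shifts in all. Over these shifts 3.22% of the peaks were close to FOXA1 (2.80 to 3.62 across the shifts), so the share at the true positions was 2.12 times as high. The excess was at short range: within 100 bp the shares were 1.995% and 0.655%, within 1 kb 9.76% and 6.28%, and within 10 kb 48.9% and 45.8%. The median distance hardly carried it, since the shifted medians ran from 10.3 to 12.4 kb.

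Closeness to FOXA1 was concentrated in the highest-scoring SETD7 peaks. The authors' score, a whole number per peak whose definition is not given, ran from 13 to 116716 in the SETD7 list with a median of 28. Peaks were ranked by it and divided into 10 deciles, of which the highest spans scores 58 to 116716 and the other 9 together only 13 to 58. The 5 most frequent scores hold 49.7% of the list, so ties, broken by genome order, run across the lower boundaries and deciles 1 to 9 are mostly given together here.

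In the lowest decile the median distance was 12.5 kb (11.8 to 13.3) and 4.89% of the peaks were close to FOXA1. The medians of deciles 2 to 9 were 12.4, 12.3, 11.1, 11.2, 10.6, 10.3, 10.5 and 9.30 kb, and 5.48% were close in decile 9. The medians of the shifted peaks shortened as well, from between 11.99 and 13.01 kb across the shifts in the lowest decile to between 9.48 and 11.7 kb in decile 9, and the true medians lay inside these ranges except in deciles 3 and 9, just below them. With ties broken by genome order, these deciles also differed in their chromosomes. Chromosomes 1, 3, 7, 8 and 12 held 60.8% of decile 3 and 82.8% of decile 6. In deciles 1 to 9 after removal, the median distance was 10.34 kb on those chromosomes and 14.39 kb on the others. The part of this in the run of medians was not tested. The share of close pairs in the 9 deciles stayed between 4.26% and 5.60%. The highest decile stood apart, with a median of 4.45 kb (4.07 to 4.88) and 585 of 2536 peaks close to FOXA1, or 23.1% (21.5 to 24.7). Over the shifts, 4.09% of the highest decile and 3.12% of deciles 1 to 9 were close. Beside the boundary at score 58, the last peaks of decile 9, chr6:122781307-122781584 and chr6:136599033-136599721, lay 11.6 and 4.06 kb from FOXA1. The first peaks of the highest decile, chr7:17299074-17299355 and chr7:17522571-17522869, lay 9.38 and 9.58 kb from it. These 4 peaks share 1 score and are divided only by genome order.

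Some SETD7 peaks coincide with FOXA1 peaks of the other cell line, and those shared by all 3 LNCaP lists were removed next. The rule, an overlap of at least 1 bp with a peak of each LNCaP list, took out 495 SETD7 peaks, 237 of them in the highest decile. Of the removed peaks 405 were close to vehicle FOXA1, or 81.8% (78.2 to 85.0), at a median distance of 0.180 kb. The rule selects SETD7 peaks at FOXA1 peaks common to the lines, so this high share is in part built in. After the shifts 322 to 393 peaks met the same rule, or 1.28% to 1.55%, against 1.95% at the true positions.

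The removed peaks of the highest decile differed from those of deciles 1 to 9, for the score by construction. In the highest decile they were broad and strong, with a median width of 692 bp and a median score of 720, and 57.0% lay in the flanks of peak-free stretches. These flanks are the positions within 2 Mb of 25 stretches of at least 1 Mb in which none of the 7 lists has a peak. They were defined after the scores were seen, and long stretches without peaks are typical of assembly gaps, centromeres among them. The 102 removed peaks of the highest decile outside flanks had a median width of 540 bp and a median score of 435.5. In deciles 1 to 9 the 258 removed peaks had a narrower median, 358.5 bp, and a median score of 27, and 8.53% lay in flanks.

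The removed peaks with the highest scores were chr1:121484090-121485424 (score 116716), chr7:61968575-61970591 (73269) and chr10:42596799-42600431 (50338). All 3 lay in flanks and overlapped a peak in each of the 6 FOXA1 lists, and the nearest vehicle FOXA1 peaks had scores of 1531, 1163 and 553. Of the 99 removed peaks with scores over 1000, 70 lay in flanks. Signal that does not depend on the antibody was not tested at these sites, since no input library was used here.

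After the removal 24868 SETD7 peaks were left, and 1326 of them were close to FOXA1, or 5.33% (5.06 to 5.62), with a median distance of 10.6 kb (10.4 to 10.8). Shifting the peaks that were left gave 3.19%. That background is too high for this comparison, because the removal takes peaks at strong FOXA1 sites from the true positions and not from the shifted ones. With the same removal applied to the shifted peaks where they landed, 2.48% were close (2.17 to 2.83 across the shifts), and the ratio was 2.15, near the 2.12 before removal. For all deciles together, the ratio to shifted positions was as large without the peaks common to the LNCaP lists. In the highest decile it went from 5.64 before removal to 4.97 after, and in deciles 1 to 9 from 1.61 to 1.77.

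**Figure D1:**
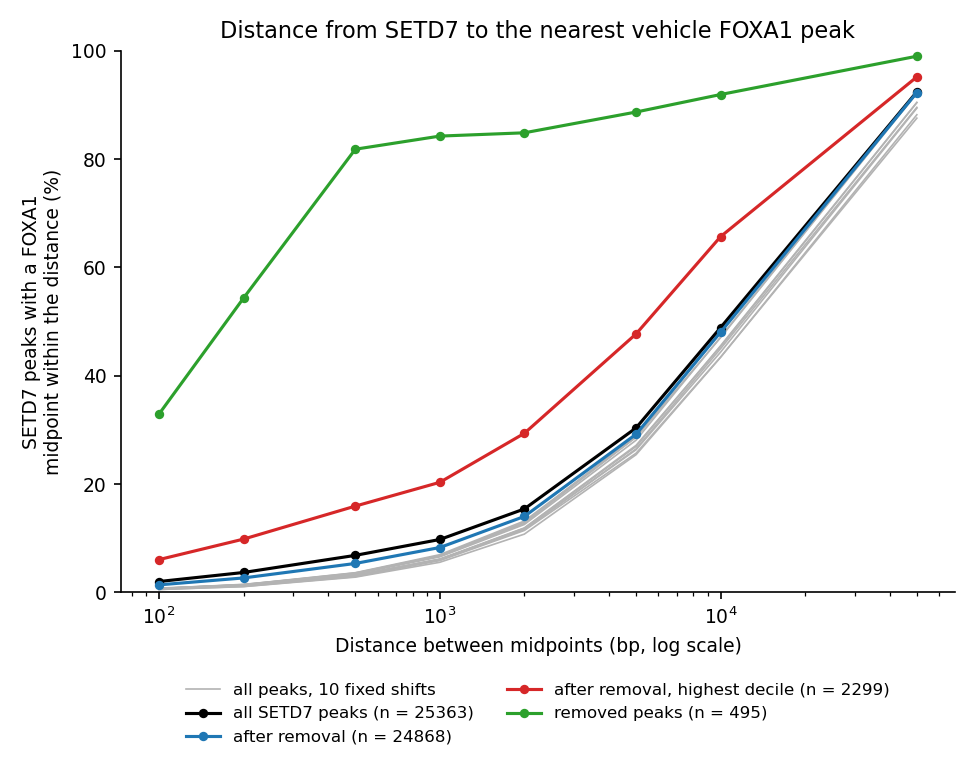
Share of SETD7 peaks (y axis, %) with a FOXA1 midpoint within the distance on the x axis (bp, log scale), for all peaks, the peaks left after removal, their highest decile, the removed peaks, and all peaks at the 10 shifts (grey). At 500 bp the removed peaks reach 81.8%, the highest decile after removal 15.9%, all peaks 6.82% and the shifts 2.80% to 3.62%.

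In the highest decile 366 of the 2299 peaks left were close to FOXA1, or 15.9% (14.5 to 17.5), and the median distance was 5.39 kb (5.04 to 5.79). The shifted and equally filtered peaks of that decile gave 3.20% on average. They gave 5.51% and 4.72% at shifts of 10 kb and 1.58% and 1.97% at shifts of 1000 kb, so FOXA1 peaks were also denser around these SETD7 peaks than far from them. The true position exceeded all 10 shifts, 4.97-fold on average. Within 100 bp the decile had 6.05% against 0.614%, a ratio of 9.85.

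Deciles 1 to 9 kept a small excess. Of their 22569 peaks left, 960 were close to FOXA1, or 4.25% (4.00 to 4.52), against 2.40% at shifted positions (2.23 to 2.57), a ratio of 1.77. Each of the 9 deciles lay between 3.62% and 4.70%, and each was above all 10 of its own shifted values. The median distance, 11.2 kb, was within the range found for the shifted peaks, so for these deciles the excess showed in the close pairs and not in the typical distance. In order from the lowest, their medians after removal were 12.6, 12.4, 12.4, 11.2, 11.3, 10.8, 10.4, 10.6 and 9.41 kb, each a little longer than before removal.

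**Figure D2:**
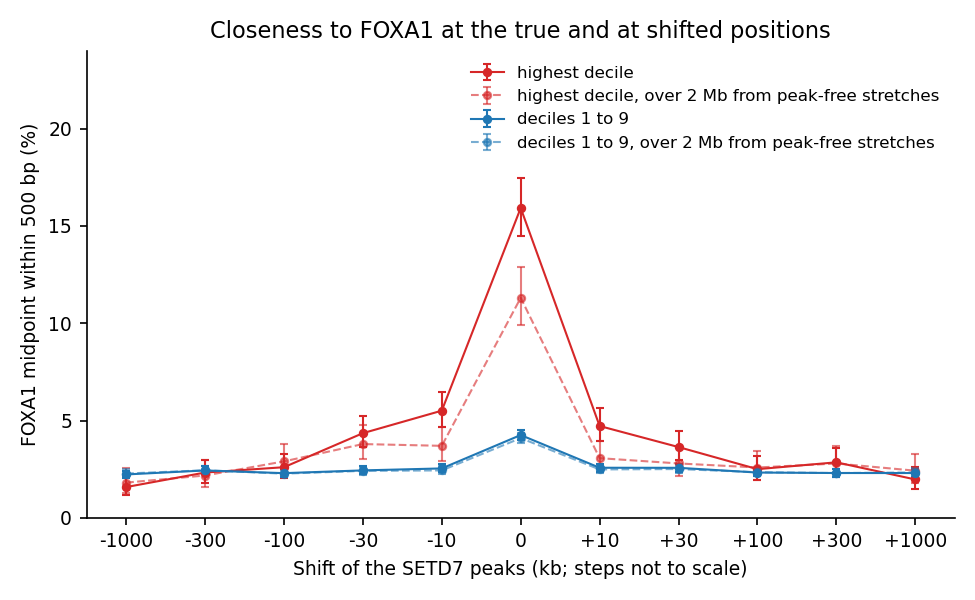
Share of SETD7 peaks close to FOXA1 (y axis, %) at the true position (0) and at shifts of 10 to 1000 kb in both directions (x axis, steps not to scale), after removal at each position, with 95% intervals. The highest decile reaches 15.9% at 0 and 11.3% outside the flanks of peak-free stretches, and deciles 1 to 9 reach 4.25% and 4.10%.

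The flanks of peak-free stretches held a large part of the strong close pairs. After removal they held 24.97% of the highest decile and 4.69% of deciles 1 to 9, against 3.87% of the vehicle FOXA1 peaks. Of the 366 close peaks of the highest decile, 171 lay in flanks, or 46.7%. In the flanks 29.8% of the highest decile was close to FOXA1 (26.2 to 33.7), and outside them 195 of 1725 peaks, or 11.3% (9.90 to 12.9).

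Taken as a whole, the highest decile still stood apart outside the flanks, though less so. Its shifted and filtered peaks there gave 2.80% (1.81 to 3.79 across the shifts), a ratio of 4.03. The median distance outside the flanks was 6.84 kb, against 11.3 kb for deciles 1 to 9. For deciles 1 to 9 the flanks mattered little, with 4.10% close outside them against 2.38% at shifted positions, a ratio of 1.72.

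**Figure D3:**
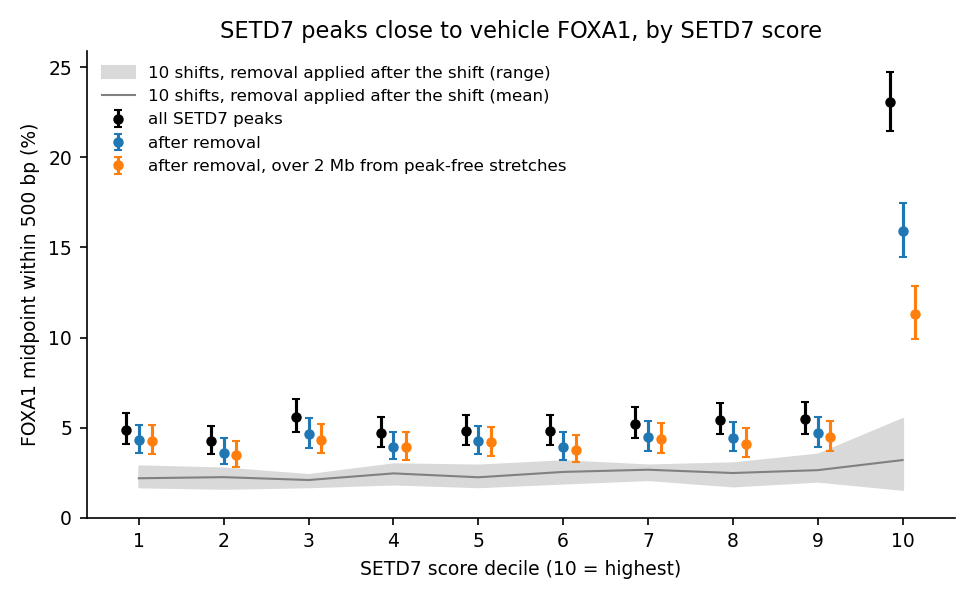
Share of SETD7 peaks with a FOXA1 midpoint within 500 bp (y axis, %) by SETD7 score decile (x axis), for all peaks, after removal, and after removal outside the flanks (over 2 Mb from peak-free stretches), with 95% intervals, beside the range and mean of the filtered shifts. The highest decile has 23.1%, 15.9% and 11.3%, and after removal deciles 1 to 9 lie between 3.62% and 4.70%. The band belongs to the series after removal, with a mean of 3.20% in the highest decile. The shifts that match the other 2 series averaged 4.09% for all peaks and 2.80% outside the flanks there.

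Within the highest decile closeness was greatest in the first 1000 peaks by score after removal. Of ranks 1 to 100 (scores 756 to 12857), 38 were close to FOXA1, or 38.0% (29.1 to 47.8). The share was 34.0% in ranks 101 to 500, 19.0% in ranks 501 to 1000, 10.0% in ranks 1001 to 1500 and 6% in ranks 1501 to 2000. Ranks 2001 to 5000 had 4.67%, about the level of deciles 1 to 9. Outside the flanks the order at the top was not the same: ranks 1 to 100 had 13 of 67 close (19.4%, 11.7 to 30.4) and ranks 101 to 500 had 68 of 272 (25%, 20.2 to 30.5), with intervals that overlap. Also outside the flanks, ranks 501 to 1000 had 17.3% close, ranks 1001 to 1500 7.67% and ranks 1501 to 2000 3.63% (2.21 to 5.91). That last interval includes the 4.10% of deciles 1 to 9 outside the flanks. With the flanks included, the intervals of ranks 1501 to 2000 (4.23 to 8.44) and 2001 to 5000 (3.97 to 5.48) overlapped. Lower ranks were not divided into bands.

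The density of FOXA1 midpoints around SETD7 midpoints shows how local the association was. Around the highest decile after removal there were 0.302 FOXA1 midpoints per kb in the first 100 bp, 11.8 times the density around the same peaks shifted by 1 Mb. The ratio was 5.79 from 200 to 500 bp, 2.82 from 0.5 to 1 kb, 2.42 from 5 to 10 kb and 1.29 from 50 to 100 kb. Outside the flanks the ratios were lower, at 8.20 in the first 100 bp, 3.20 from 200 to 500 bp, 1.89 from 0.5 to 1 kb, 1.42 from 5 to 10 kb and 1.11 from 50 to 100 kb. The local excess within 500 bp was thus present in both, and the wider excess was smaller away from the flanks. Around deciles 1 to 9 the ratio was 1.69 in the first 100 bp, 1.89 from 100 to 200 bp and 1.25 from 200 to 500 bp. From 0.5 to 5 kb it ran from 0.968 to 1.01, and from 5 to 100 kb from 1.07 to 1.10. Around weak SETD7 peaks the local excess thus ended within 500 bp, and a small wider excess over the shifts of 1 Mb remained. These shifted densities were not filtered by the removal rule, so they count more FOXA1 midpoints than the filtered shifts would.

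**Figure D4:**
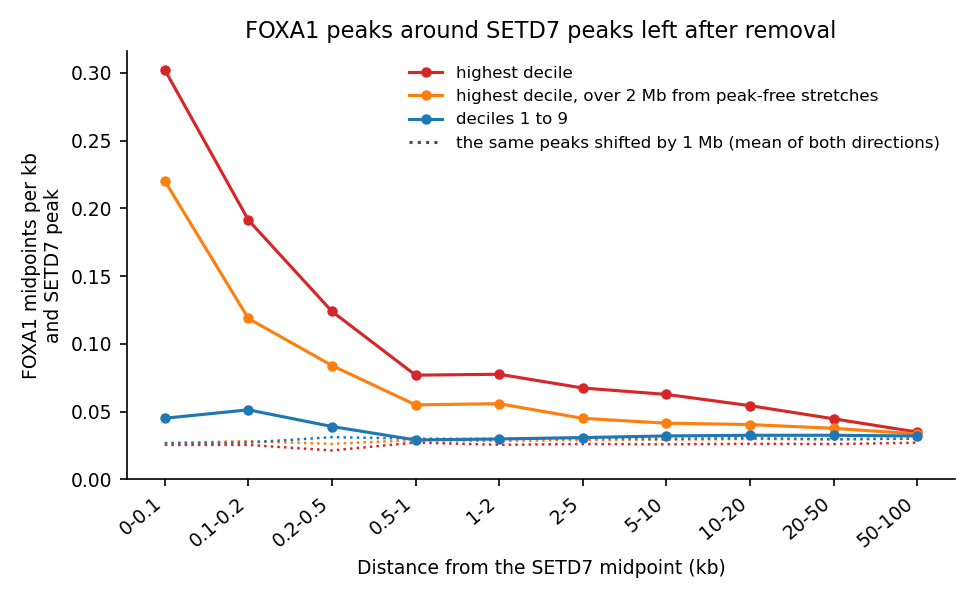
FOXA1 midpoints per kb and SETD7 peak (y axis) by distance from the SETD7 midpoint (x axis, kb, bins of unequal width), for the highest decile, its peaks outside the flanks and deciles 1 to 9, with the same peaks shifted by 1 Mb as dotted lines. The highest decile falls from 0.302 in the first 100 bp to 0.0770 at 0.5 to 1 kb, and deciles 1 to 9 meet their shifted line there.

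The close pairs with the highest SETD7 scores lay mostly in flanks. After removal the first was chr10:42379391-42380309 (SETD7 score 7219), 487.5 bp from a FOXA1 peak of score 134. The next were chr16:46392999-46393608 (3518), with FOXA1 at 25.5 bp and a FOXA1 score of 106, and chr4:49318637-49319996 (3225), with FOXA1 at 401 bp and a score of 168. All 3 lay in flanks, as did 7 of the 10 highest. The others in flanks were chr21:9698579-9700557 (3011), chr1:121385917-121386642 (2519), chr10:42364640-42366379 (1668) and chr1:143280259-143280762 (1616).

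Away from the flanks, chr3:75718069-75719013 had a SETD7 score of 2804 and a FOXA1 midpoint at 4.5 bp with a score of 383. There chr2:133026690-133026995 (1651) had FOXA1 at 40.5 bp (score 188), and chr2:176458103-176458572 (1663) had FOXA1 at 494 bp (score 254) with no overlap. The FOXA1 scores at the 10 sites ran from 38 to 444, against a highest score of 3392 in that list. All 10 SETD7 peaks overlapped an shSETD7 peak and 8 an shCTL peak. In the LNCaP lists 9 overlapped a GSK2879552 peak, 5 a peak of GSK2879552 with PFI-2 and 1 a DMSO peak. Of all 366 close peaks of the highest decile after removal, 66.1% overlapped an shSETD7 peak, 65.6% shCTL and 35.5% GSK2879552. Of all 2299 peaks of that decile after removal, close or not, the shares were 37.5%, 27.5% and 6.44%. For GSK2879552 with PFI-2 the share of the close peaks was 16.9%, and for DMSO 4.37%, against 3.09% and 0.957% of all 2299. The removal rule lowers these LNCaP shares by construction. Before removal, 59.7% of the 585 close peaks of the highest decile overlapped a GSK2879552 peak. For GSK2879552 with PFI-2 that share was 48.0%, and for DMSO 40.2%. The removal kept the 10 sites because at least 1 of the LNCaP lists, most often DMSO, had no peak there.

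Some of the strongest SETD7 peaks had no vehicle FOXA1 peak nearby. After removal 789 of the 2299 peaks of the highest decile lay over 10 kb from FOXA1, or 34.3%, against 53.8% of deciles 1 to 9. The highest scores were chr13:87602856-87603157 (12857, FOXA1 at 30.1 kb), chr4:122448058-122448465 (4100, 23.02 kb) and chr11:14779917-14780641 (3002, 17.9 kb). They were followed by chrX:57411038-57411381 (2526, 48.9 kb) and chr1:99855116-99855739 (2288, 15.6 kb). All 5 overlapped a FOXA1 peak in both the shCTL and the shSETD7 list and none in the LNCaP lists, and 1 lay in a flank.

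Of all 789 such peaks of the highest decile, 137 overlapped an shCTL peak, or 17.4% (14.9 to 20.2). An shSETD7 peak was overlapped by 223, or 28.3% (25.2 to 31.5), with 86 in both lists. Both shares were below those of the whole decile after removal, 27.5% for shCTL and 37.5% for shSETD7. Among the distant peaks the shares were higher at the top of the score range. Of the 100 highest-scoring peaks over 10 kb from vehicle FOXA1 (scores of at least 235), 63 overlapped an shCTL peak and 66 an shSETD7 peak, with 47 in both lists. For the LNCaP lists the counts were 0 with DMSO, 3 with GSK2879552 and 0 with both compounds. In deciles 1 to 9, 1.66% of the distant peaks overlapped shCTL and 8.65% shSETD7, against 4.05% and 11.8% of all peaks of these deciles after removal. Most of the highest decile over 10 kb from vehicle FOXA1 therefore had no peak in either hairpin list, unlike its 100 highest scores. Whether signal that does not depend on the antibody plays a part was not tested.

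From the side of FOXA1 the association was small and did not grow with FOXA1 strength throughout. Of the vehicle FOXA1 peaks, 1776 had a SETD7 midpoint within 500 bp, or 2.73% (2.61 to 2.86), against 1.26% when SETD7 was shifted. The share was 1.997% to 2.24% in FOXA1 score deciles 1 to 5 and rose to 3.86% in decile 9 (3.42 to 4.35). It was 2.98% in the highest decile (2.59 to 3.42), below decile 9 with intervals that just overlap.

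After removal of the SETD7 peaks shared with LNCaP, 2.07% of FOXA1 peaks were close to SETD7, and in the highest FOXA1 decile 50 of 6509, or 0.768% (0.583 to 1.01). The rule itself contributes to this fall, since 88.3% of the highest FOXA1 decile and 17.5% of the lowest overlapped all 3 LNCaP lists. Against shifted SETD7 peaks filtered in the same way, the highest decile had 1.72 times as many close pairs, the lowest 1.76, decile 7 2.90 and decile 9 3.37. Relative to that background, the ratios were highest in FOXA1 deciles 7 to 9, and that of the highest decile was near that of the lowest.

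**Figure D5:**
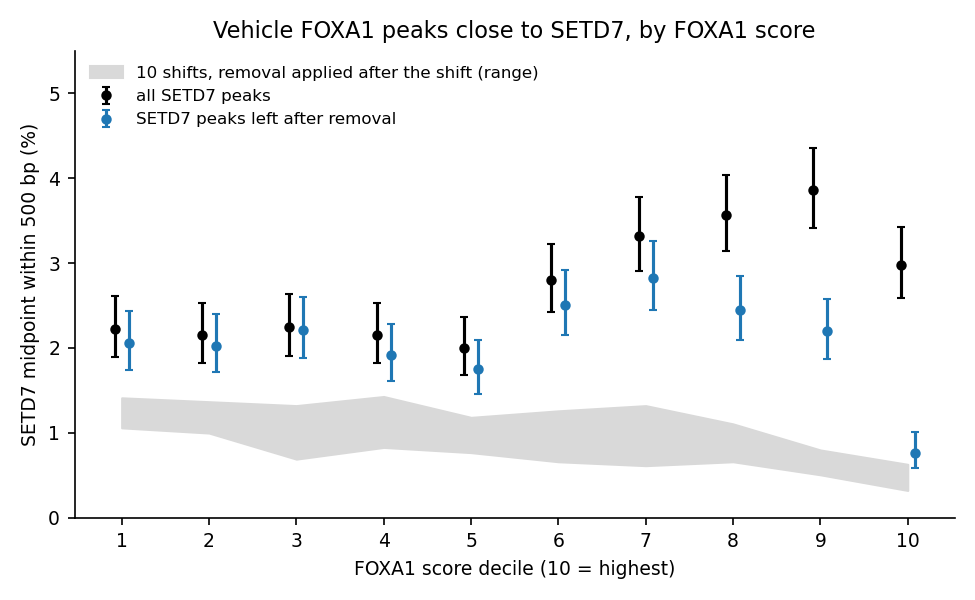
Share of vehicle FOXA1 peaks with a SETD7 midpoint within 500 bp (y axis, %) by FOXA1 score decile (x axis), for all SETD7 peaks and those left after removal, with 95% intervals, and the range of the filtered shifts in grey. Before removal decile 9 is highest at 3.86%, and after removal the highest decile is lowest at 0.768%.

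Among the close pairs left after removal, the 3 highest FOXA1 scores were 1802, 1519 and 1447. Their SETD7 peaks were chr12:19283477-19283774, chr12:33108987-33109280 and chr1:212464497-212464762, with scores of 31, 21 and 39 and midpoints 337, 439.5 and 324.5 bp away. The SETD7 peak at 439.5 bp overlapped no FOXA1 peak in any list and lay in a flank. The removal takes out pairs at strong FOXA1 peaks shared with LNCaP: the removed SETD7 peaks with scores of 116716 and 73269 were close to FOXA1 peaks of scores 1531 and 1163.

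Close SETD7 peaks were wider than distant ones, and in the highest decile they were also more clustered. In the highest decile after removal, close SETD7 peaks had a median width of 560 bp, and those over 10 kb from FOXA1 362 bp. In deciles 1 to 9 the medians were 353.5 and 315 bp. Another SETD7 peak lay within 5 kb of 56.0% of the close peaks of the highest decile, against 38.2% of that decile. In deciles 1 to 9 the shares were 20.7% for the close peaks and 17.8% for all. Strong close peaks were therefore wide and clustered, and several can belong to 1 region. Width also rose with score, from a median of 354.5 bp in ranks 1501 to 2000 to 541 bp in ranks 1 to 100. In flanks the close and distant peaks of the highest decile had medians of 672 and 378.5 bp, and outside them 501 and 360 bp. The part of the score in the width and the clustering was not tested. The midpoints of close pairs were a median of 138.5 bp apart in the highest decile, where 91.8% overlapped a FOXA1 peak, and 220 bp apart in deciles 1 to 9, where 69.7% did.

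The FOXA1 peaks near SETD7 differed from vehicle FOXA1 peaks in general in how often other lists held them. Before removal, 34.1% of the 1716 FOXA1 partners overlapped an LNCaP DMSO peak (31.9 to 36.4), against 48.3% of all vehicle FOXA1 peaks. In the shSETD7 list the shares were 72.5% (70.3 to 74.6) and 43.4%, and in the shCTL list 71.9% and 67.0%. Partners were thus found less often in LNCaP DMSO and more often in shSETD7 than vehicle FOXA1 peaks in general, with no matching by score. The partners of the highest SETD7 decile overlapped GSK2879552 peaks in 59.2% of cases, DMSO peaks in 39.5% and peaks of both compounds in 46.1%, against 45.4%, 48.3% and 49.9% of all vehicle FOXA1 peaks. The lists differ in length and in their lowest score, and the part of these differences was not tested.

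Weak SETD7 peaks were closer than their shifted positions to all 3 FOXA1 lists of 22Rv1, and not to the LNCaP DMSO list. In deciles 1 to 9 before removal 5.02% were close to vehicle FOXA1 against 3.12% over the shifts, 6.05% to shCTL against 3.91%, and 13.5% to shSETD7 against 3.31%. To LNCaP DMSO FOXA1 2.54% were close (2.34 to 2.75), below the 2.85 to 3.37% of the shifts. The highest decile was closer than its shifts to all 4 lists. Its share was 39.6% for shSETD7 against 4.32% over the shifts, 32.6% for shCTL against 4.69%, 23.1% for vehicle against 4.09% and 10.1% for LNCaP DMSO against 3.07%. Outside the flanks the shares were 36.0%, 28.4%, 15.7% and 6.79%. In this order shSETD7 stood first both in the highest decile and in deciles 1 to 9.

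The result differed between chromosomes. SETD7 peaks are concentrated on chromosomes 1, 3, 7, 8 and 12, a set picked earlier from the counts of these data. After removal, 122 of 1250 peaks of the highest decile there were close to FOXA1, or 9.76% (8.24 to 11.5), and 13.8% lay in flanks. On the other chromosomes 244 of 1049 were close, or 23.3% (20.8 to 25.9), and 38.3% lay in flanks. In deciles 1 to 9 the shares were 4.36% and 3.98%, against 3.39% and 2.42% at shifted positions without the filter. In the highest decile the shifted shares without the filter were 4.04% and 3.71%. Chromosomes 1, 3, 7, 8 and 12 held 26% of score ranks 1 to 100 after removal and 74.2% of ranks 1501 to 2000. Lower scores of the decile were thus more common there. The part of the flanks and of the scores in the chromosome difference was not tested.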

How the data were processed

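Per the labels' protocols, cells were fixed in 1% formaldehyde. There is 1 peak list for each library. MACS2 2.1.4, SAMtools 1.9, BWA 0.7.17-r1188, FastQC 0.11.9 and build hg19 are named per the submitters' processing notes. The peak threshold, and whether inputs served as controls, is not given in the sources used here. Each peak's score is the authors' deposited value and was used only within its list. Peaks were compared by midpoint on chromosomes 1 to 22 and X, and shifted peaks that left the span of a chromosome's peaks were dropped. Shares have Wilson intervals, medians exact binomial intervals, both at 95%. The distance code was tested on simulated peaks, and bedtools 2.31.1 gave the same 1427 overlapping SETD7 peaks as the code. Values were computed in Python 3.11.15 with scipy 1.17.1, pandas 2.3.3 and numpy 2.4.6, and plotted with matplotlib 3.10.9.

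The lists and comparisons were chosen with earlier results of these data known. Named sites were, by rule, the 10 highest SETD7 scores among close pairs after removal, the 5 highest over 10 kb from FOXA1, the 3 highest removed, the 3 close pairs with the highest FOXA1 scores, and the 2 peaks on each side of the boundary of the highest decile. Alternatives were the shCTL list, the higher-scoring 50% of the lists, other removal and distance rules, other tie orders and chromosomes left out. The flanks, deciles within chromosomes and removal at shifted positions were added after seeing the data. Sites are given by position, as no hg19 annotation or sequence was used here.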

Additional observations from a re-analysis of the deposited data

How the results depend on the processing

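For 6 results 50 alternatives were run, and 42 of them gave a value outside the interval of the reported one. In the order median distance before and after removal (10.4 and 10.6 kb), then close share before removal, after it, and in the highest decile after it (6.82%, 5.33% and 15.9%), the values were as follows. The shCTL list gave 8.51 and 8.75 kb, 8.71%, 7.35% and 27.6%. The higher-scoring 50% of both lists gave 19.5 and 20.3 kb, 5.64%, 3.51% and 9.004%, and that of the FOXA1 list alone 22.4 and 22.9 kb, 4.18%, 2.81% and 9.004%. Without chromosomes 1, 3, 7, 8 and 12 they were 11.9 and 12.5 kb, 9.55%, 6.75% and 23.3%. Gaps between peak edges gave 10.0 and 10.3 kb, 8.71%, 7.21% and 19.2%. Without the flanks they were 10.8 and 10.9985 kb, 5.68%, 4.63% and 11.3%. Removal of SETD7 peaks found in any LNCaP list gave 10.8 kb, 4.13% and 10.4%, and removal within 1 kb gave 11.014 kb and 4.98%. Deciles within each chromosome gave 13.7% in the highest. Of single shifts, with a mean of 3.22%, those of -10, 10, 30, -1000 and 1000 kb gave 3.62%, 3.59%, 3.496%, 2.80% and 2.90%, and removal at the shifted position gave 2.48%. By construction, fewer FOXA1 peaks lengthen distances and a wider removal lowers shares. For the other changes the cause was not tested. No paired analysis was possible because each group has 1 library, so leaving out a replicate was not possible either. Read depth is unknown, so a missing peak may be a shallow library. The highest-scoring SETD7 peaks near peak-free stretches, the tied scores and the unnamed score threshold limit what the deciles show.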
